A study of Mus musculus with 4 samples.

Results

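Heat shock proteins and the other molecular chaperones bind unfolded or newly made proteins and keep them from aggregating. They work in sets, in which a J-domain protein delivers a client to an HSP70, a nucleotide exchange factor releases it, and HSP90 or the ring-shaped chaperonin CCT completes the folding. Some are constitutive, whereas others are stress-inducible and are switched on by heat shock factors that bind repeats of the heat shock element in their promoters. The chaperone genes described here were chosen by name, as the protein-coding genes whose symbols begin with Hsp (the HSP70, HSP90, HSP110, HSP60, HSP10 and small heat shock families), Dnaj (the J-domain family) or Cct, together with Tcp1 and Bag1 to Bag6. The rule found 79 of the 19353 genes counted, and it used no measured value. Another 7 genes matched by name but were annotated with another biotype and were left out.

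Muscle satellite cells (MuSCs) are the stem cells of skeletal muscle. They were sorted from plantaris muscle of tamoxifen-treated Pax7-CreERT2:Rosa-YFP mice, in which Cre activity driven by Pax7 marks MuSCs with yellow fluorescent protein (YFP). Overloaded muscle had been loaded for 4 days by transection of the distal tendons of gastrocnemius and soleus (tenotomy), and sham muscle received the skin incision alone. All cells carried the same alleles, the age of the mice was not given in the sources used here, and tissue was digested with collagenase before sorting in both groups. There were 2 libraries per group, each made from a tube of 100 cells by CEL-Seq2, which reads the 3′ end of each transcript and tags each molecule with a unique molecular identifier (UMI). Each molecule is counted once, which makes counts comparable between transcripts of different length. Whether the tubes of a group came from different mice was not stated, so p-values measure the spread between tubes, which may be technical. It was not stated either whether sham and overloaded tubes shared mice, although other experiments of the study used contralateral sham muscle.

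In total, 269683 and 260488 UMIs were counted in sham and 387955 and 483528 in overloaded libraries. Levels are given as UMIs or as CPM, the usual unit of counts relative to library size, here after TMM scaling, which sets each gene against the other transcripts of its library. A count of 3 corresponded to 13.1 and 13.6 CPM in the sham libraries and to 7.80 and 6.08 CPM in the overloaded ones. Log2 fold changes (log2FC) set overloaded against sham and come from edgeR's quasi-likelihood test over 7228 genes, with an adjusted p under 0.1 as threshold. In such pooled cells, fewer cells of a type and less RNA per cell cannot be told apart. The sorted cells carried the MuSC markers Pax7, at 118 and 107 UMIs in sham and 108 and 137 in overloaded libraries, and Myf5, at 244, 168, 388 and 467 UMIs. Of 8 such markers 4 were lower and 2 higher in overloaded MuSCs, against 26.3% and 25.8% of all genes. The largest falls were those of Calcr (37, 57, 15 and 15 UMIs, log2FC -2.60) and Chodl (196, 188, 114 and 105 UMIs, log2FC -1.76). The rise of Cdh15 did not pass with DESeq2 (adjusted p = 0.29), with thinned counts (0.12) or without sham replicate 1 (0.35), sham replicate 2 (0.18) or overloaded replicate 1 (0.17). Pax7 was lower (log2FC -0.84), though not past the threshold with the abundance offsets or per tube, scales that are described below.

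All 79 genes were detected in at least 1 library, and 59 had enough counts for the test. Of these, 9 were higher and 19 lower in overloaded MuSCs, and 31 did not pass the threshold. Of the 9 higher genes, 7 (all but Bag1 and Dnajc8) exceeded the minimum level of the count filter in both overloaded libraries but not in both sham libraries, so low genes could enter the test through the group where they were high, and the number of rises is not read as a result on its own. Of the 19 lower genes this held, in reverse, for Hspa2 alone. Among all genes tested, 25.8% were higher and 26.3% lower, 52.1% in either direction, so that passing the test did not in itself set a chaperone gene apart. The median log2FC of the 59 genes was -0.13, against 0.05 for all genes. The levels of both overloaded libraries lay above both sham libraries for 13 of the 59 genes and below them for 26, against 37.5% and 35.4% of all genes. The split between classes was wide with TMM scaling: 9 of 11 stress-inducible cytosolic chaperones were lower, and 0 of 7 CCT subunits passed in either direction.

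In all, the 79 genes took 4995 and 4938 UMIs in the sham libraries and 5586 and 6704 in the overloaded ones. As a share of each library this was 1.85% and 1.90% in sham and 1.44% and 1.39% in overloaded MuSCs. The smaller share in overloaded libraries therefore went with more chaperone UMIs per tube, since these tubes yielded more UMIs in total. No added RNA standard is described in the sources used here, so UMIs per tube are not read as numbers of molecules present. The stress-inducible genes accounted for most of the difference in share, at 0.825% and 0.826% of the sham and 0.497% and 0.464% of the overloaded libraries. The CCT subunits took 0.177% and 0.170% in sham and 0.207% and 0.191% in overloaded libraries.

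**Figure D1:**
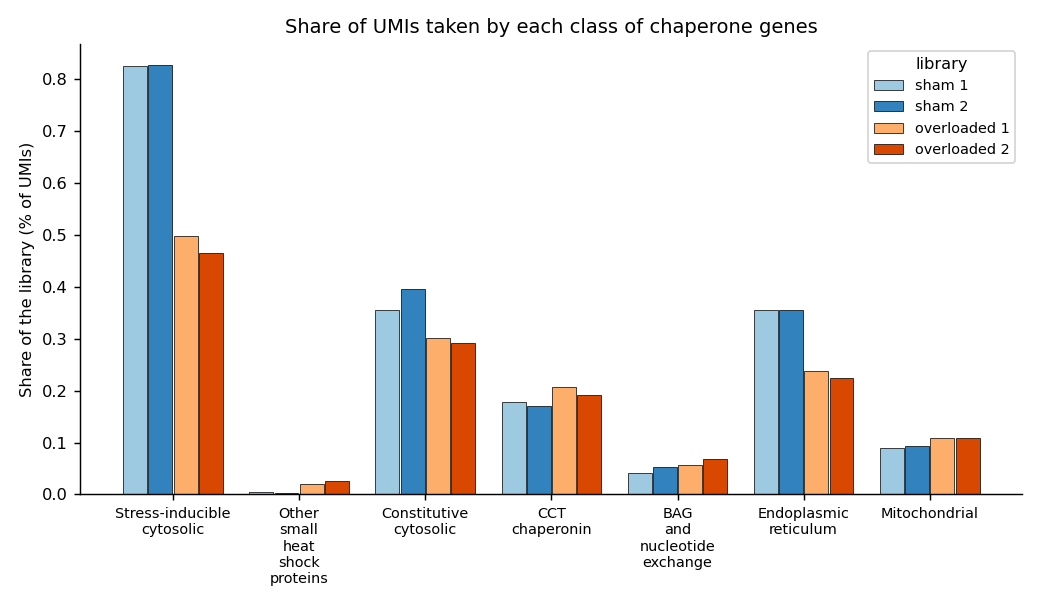
Share of all UMIs of a library (vertical axis, %) taken by each class of chaperone genes, with 1 bar per library. The stress-inducible bars stand near 0.825% in both sham libraries and at 0.497% and 0.464% in the overloaded ones, while the CCT bars lie between 0.170% and 0.207% in all 4.

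Promoter sequences show which of these genes carry motifs of the stress responses near their start. RefSeq promoter windows on GRCm38.p6, from 250 bases before to 50 bases after the transcription start, were matched by symbol for 65 of the 79 genes. A heat shock element is built from alternating units of GAA and TTC. An inverted pair of units, GAANNTTC or TTCNNGAA (each is its own reverse complement), was present in 8 of 10 stress-inducible genes with a window and in 18 of all 65 genes, against 17.0% of 27025 genes with a window. A run of 3 units, GAANNTTCNNGAA or its reverse complement TTCNNGAANNTTC, which always contains such pairs, was found in Hspd1, Hspe1, Dnajb6 and Hsph1, 4 of 65 genes (6.15%), against 0.662% of all. A match describes letters in this window and was not tested as a binding site. The upstream sequences of the HSP70 genes Hspa1b (chr17:34959239-34959388, minus strand) and Hspa1a (chr17:34972157-34972306, minus strand) and of the small heat shock gene Hspb1 (chr5:135887769-135887918, plus strand) are shown because these were the most abundant inducible transcripts, with the inverted pairs in capitals:
Hspa1b: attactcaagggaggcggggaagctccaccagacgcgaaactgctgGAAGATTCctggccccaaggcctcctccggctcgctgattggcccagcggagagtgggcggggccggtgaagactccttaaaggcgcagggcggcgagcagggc
Hspa1a: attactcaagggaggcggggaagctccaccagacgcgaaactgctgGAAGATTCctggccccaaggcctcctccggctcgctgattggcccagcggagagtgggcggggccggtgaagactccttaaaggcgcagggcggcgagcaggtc
Hspb1: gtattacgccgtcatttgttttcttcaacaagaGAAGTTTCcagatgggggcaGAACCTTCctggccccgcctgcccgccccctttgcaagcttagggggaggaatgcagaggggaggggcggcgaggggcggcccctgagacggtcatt

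The Hspa1a and Hspa1b sequences were identical at 247 of the 250 bases before the start (98.8%) and at 149 of the last 150, so both promoters carry the same pair at the same place, 104 bases before the start. In Hspb1 the pairs began 117 and 97 bases before the start. Hspb8 and Bag3, whose proteins form a complex, each had a GAAGTTTC just downstream of the start, at 3 and 43 bases. Runs of 3 units lay mostly outside the inducible class. Hspe1 (chr1:55088053-55088082, plus strand), which shares a bidirectional promoter with Hspd1, and Dnajb6 (chr5:29735844-29735873, plus strand) are shown with the whole run in capitals:
Hspe1: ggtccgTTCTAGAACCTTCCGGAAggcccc
Dnajb6: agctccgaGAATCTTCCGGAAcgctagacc

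The endoplasmic reticulum stress element, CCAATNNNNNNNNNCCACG or its reverse complement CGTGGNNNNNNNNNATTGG, is the motif of the unfolded protein response. It was present in 3 of 11 endoplasmic reticulum chaperone genes with a window (27.3%), against 0.137% of all genes: Hspa5, Hsp90b1 with 2 elements, and Dnajc3. These 3 genes were all lower in overloaded MuSCs with TMM scaling, as described below, against 26.3% of all genes. When all genes were divided by abundance into 10 equal bins, all 3 lay in the most abundant one, where 70.8% were lower. Hsp90b1 did not pass with DESeq2, with library sizes alone or with the offsets, and per tube only Hspa5 of the 3 was lower. Dnajb9 and Dnajc25, also endoplasmic reticulum genes, were lower too and are not among the genes with the element. The elements, in capitals, lay in Hspa5 (chr2:34772020-34772049, plus strand), Hsp90b1 (chr10:86705632-86705661 and chr10:86705527-86705556, minus strand) and Dnajc3 (chr14:118937822-118937851, plus strand):
Hspa5: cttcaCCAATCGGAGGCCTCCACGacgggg
Hsp90b1, distal: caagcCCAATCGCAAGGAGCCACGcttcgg
Hsp90b1, proximal: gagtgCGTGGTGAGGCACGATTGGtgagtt
Dnajc3: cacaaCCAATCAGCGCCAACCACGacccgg

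The stress-inducible cytosolic class held 11 genes, and all were tested. In overloaded MuSCs 9 of them (81.8%) were lower and Hspb8 was higher, against 26.3% and 25.8% of all genes, while Hspa4l did not pass. With offsets for abundance the class had 2 higher and 6 lower genes, where 20.1% and 21.8% of all genes were. As UMIs per tube it had 2 higher and 3 lower, where 62.0% and 4.58% of all genes were. The median log2FC was -1.11, against 0.05 for all genes, and it stayed below 0 under every other scaling tried. When all genes were divided by abundance into 10 equal bins, the most abundant bin held 17 chaperone genes, of which 12 were lower, while 70.8% of all genes in that bin were lower and their median was -0.74.

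Hspa1b encodes a stress-inducible HSP70 and was the most abundant chaperone transcript. It had 610 and 588 UMIs in sham against 495 and 581 in overloaded libraries. The lowest sham count was thus only slightly above the highest overloaded count, although the overloaded libraries were larger. As a level it was 2659 ± 5.97 CPM (SD, n = 2) in sham and 1232 ± 78.1 CPM (SD, n = 2) in overloaded MuSCs, and the groups did not overlap. The log2FC was -1.11 (95% confidence interval -1.44 to -0.78, adjusted p = 3.33e-05), a level 2.16-fold lower.

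Hspa1a, the neighbouring gene for the same inducible HSP70 (GRCm38 chr17:34969190-34972156, minus strand, beside Hspa1b at chr17:34956436-34959238), was counted 401, 415, 277 and 332 times. It fell from 1813 ± 95.1 to 696 ± 33.9 CPM (mean ± SD, n = 2 each), a log2FC of -1.38 (95% confidence interval -1.71 to -1.05, adjusted p = 3.52e-06). No run of 50 bases in the last 500 bases of either transcript was shared with another gene, the other copy included, so reads of that length from these ends could tell the copies apart. The ratio of Hspa1a to Hspa1b counts was 0.657 and 0.706 in sham and 0.560 and 0.571 in overloaded libraries, without overlap.

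Dnajb1, the inducible J-domain partner of HSP70 (HSP40), had the lowest fold change of the class. Its counts were 209 and 189 in sham and 110 and 127 in overloaded libraries, fewer UMIs per tube even though the overloaded tubes yielded more UMIs in total. The level fell from 883 ± 37.9 to 272 ± 20.4 CPM (mean ± SD, n = 2 each), a log2FC of -1.70 (standard error 0.16, adjusted p = 6.49e-07). The constitutive J-domain gene Dnaja2 was counted 53, 57, 98 and 145 times, with a log2FC of 0.17 (adjusted p = 0.47), but it passed as higher with the offsets (0.59, adjusted p = 0.016), per tube (1.14) and when library sizes alone were used (0.45, adjusted p = 0.050). Within a library the ratio of Dnajb1 to Dnaja2 was therefore 3.94 and 3.32 in sham and 1.12 and 0.876 in overloaded MuSCs.

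Bag3, a nucleotide exchange factor that links HSP70 clients to autophagy in muscle, had 161 and 174 UMIs in sham against 114 and 132 in overloaded libraries. Its level fell from 745 ± 61.8 to 282 ± 20.6 CPM (mean ± SD, n = 2 each), a log2FC of -1.40 (standard error 0.17, adjusted p = 5.01e-06). Hspb8, the small heat shock protein that works with Bag3 in this route, moved the other way. It had 7 and 14 UMIs in sham against 94 and 149 in overloaded libraries, far apart, and its level rose from 46.9 ± 23.3 to 273 ± 40.5 CPM (mean ± SD, n = 2 each). The log2FC was 2.55 (95% confidence interval 1.93 to 3.17, adjusted p = 3.92e-06), a 5.86-fold rise. Hspb8 exceeded the minimum of the count filter in both overloaded libraries but not in both sham libraries. The ratio of Hspb8 to Bag3 counts went from 0.0435 and 0.0805 in sham to 0.825 and 1.13 in overloaded MuSCs, so that Hspb8 went from the far rarer transcript to one nearly as numerous as Bag3.

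Hsp90aa1, the inducible HSP90, was counted 119, 156, 109 and 121 times and fell by 1.22 on the log2 scale (adjusted p = 6.10e-05). Hsph1, an HSP110 that releases nucleotide from HSP70, was counted 220, 155, 158 and 172 times and fell by 1.14 (adjusted p = 9.19e-05). The raw counts of both genes overlapped between groups, so their fall rested on the scaling to library size. The J-domain genes Dnaja1 (73, 63, 72 and 83 UMIs, log2FC -0.77) and Dnajb4 (84, 78, 95 and 100 UMIs, -0.69) fell with adjusted p = 0.0031 and 0.0054, although both turned above 0 per tube (0.19 and 0.27). Hspb1, an inducible small heat shock protein that binds and protects actin filaments, was counted 306, 299, 345 and 363 times, more often in both overloaded libraries, and its log2FC was -0.72 (adjusted p = 0.0016). Hspa4l, an HSP110 relative, was counted 36, 20, 60 and 85 times with a log2FC of 0.41 (95% confidence interval -0.13 to 0.94, adjusted p = 0.21). It was 0.83 without sham replicate 1 and 0.03 without sham replicate 2, so its value rested on which sham library was used. Hspa4l also passed as higher per tube and with library sizes alone, where 62.0% and 37.3% of all genes were higher.

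**Figure D2:**
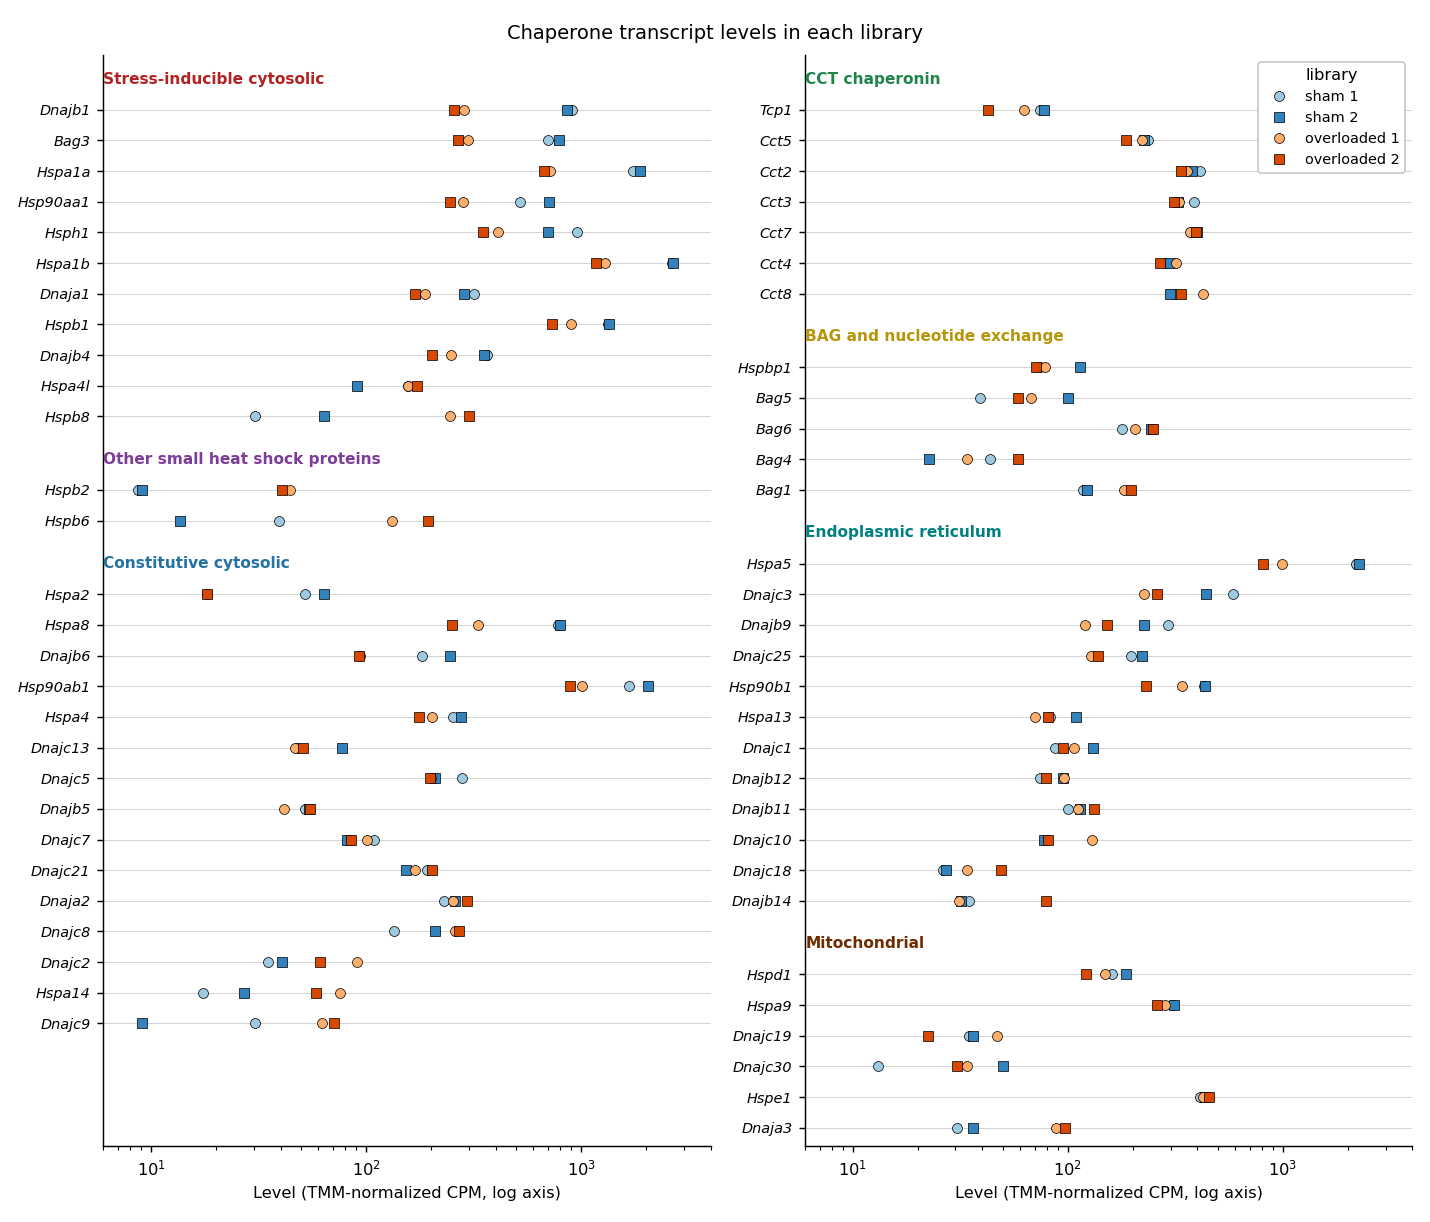
Level of each tested chaperone gene (horizontal log axis, TMM-normalized CPM) in the 4 libraries, grouped by class and ordered by fold change. For Dnajb1, Bag3 and Hspa1a the blue sham symbols lie to the right of the orange overloaded ones without overlap, for Hspb8 and Hspb6 the order is the opposite, and the groups overlap for Cct3, Cct4 and Cct7.

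How these falls are read depends on what a transcript is set against. The abundant genes of these libraries had lower fold changes in general, from a median log2FC of 0.53 in the least abundant bin to -0.74 in the most abundant one. The fold changes were therefore also computed with offsets that remove this trend, and as UMIs per tube of 100 cells without any scaling, which shifts the median of all genes to 1.01. Dnajb1, Bag3, Hspa1a and the constitutive Hspa8 were lower past the threshold on all 3 scales. Dnajb1 had a log2FC of -0.96 with the offsets (adjusted p = 1.76e-05) and -0.75 per tube (adjusted p = 0.00225). Bag3 was at -0.69 and -0.45, Hspa1a at -0.34 and -0.42 and Hspa8 at -0.72 and -0.50. Hspa1b was not past the threshold on either, at 0.08 (adjusted p = 0.63) and -0.15 (adjusted p = 0.27). Hspb1 turned to 0.29 with the offsets (adjusted p = 0.062) and 0.23 per tube (adjusted p = 0.15). The rise of Hspb8 held on every scale, at 2.51 with the offsets, although this gene passed the filter through the overloaded libraries alone.

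Across all 59 tested genes, the split of 9 higher and 19 lower became 15 higher and 12 lower with the offsets, where 20.1% of all genes were higher and 21.8% lower. Per tube it became 31 higher and 5 lower, where 62.0% of all genes were higher and 4.58% lower. With library sizes alone, which puts the median of all genes at 0.33, it was 17 higher and 16 lower, where 37.3% and 18.7% of all genes were higher and lower. The 5 genes lower per tube were Dnajb1, Bag3, Hspa1a, Hspa8 and Hspa5, and all of them were also lower with TMM. The stress-inducible median was -1.11 with TMM, -0.33 with the offsets and -0.15 per tube.

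**Figure D3:**
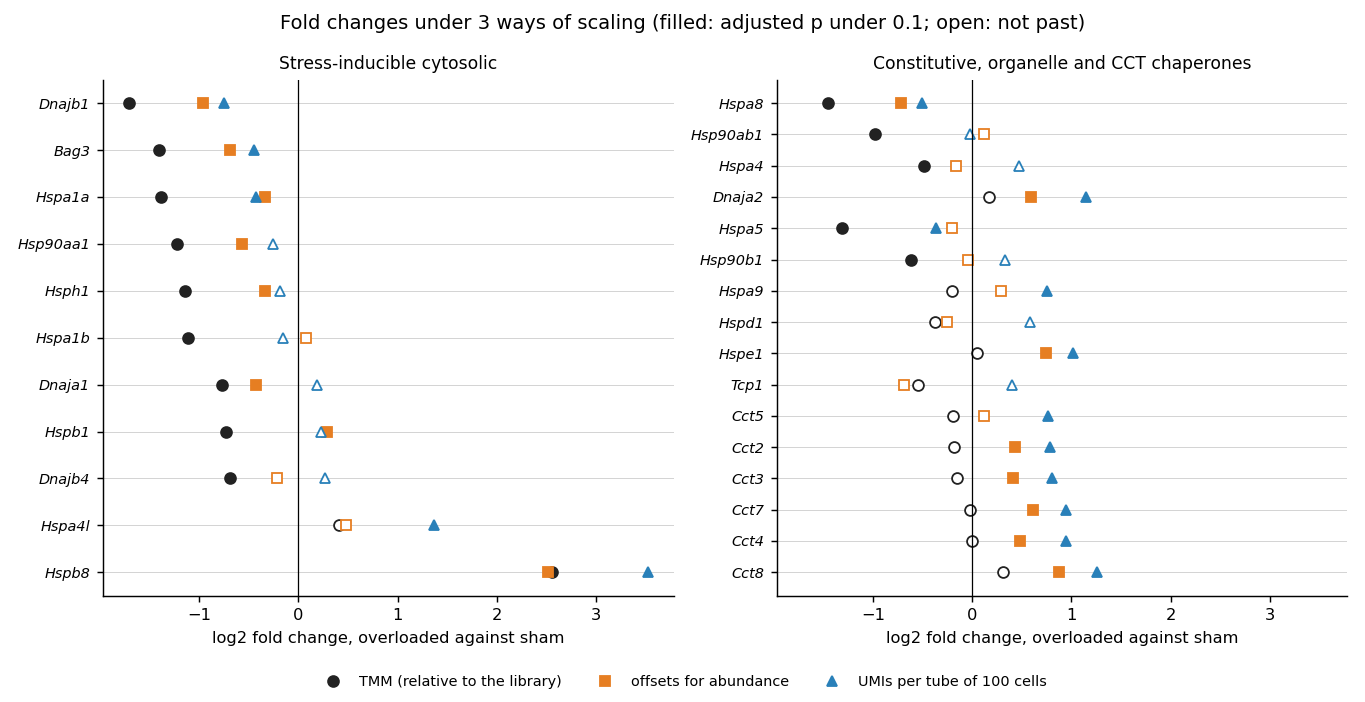
Log2 fold change (horizontal axis) of stress-inducible genes (left) and of selected constitutive, organelle and CCT genes (right) with TMM scaling, with offsets for abundance and as UMIs per tube, filled where adjusted p was under 0.1. Dnajb1, Bag3, Hspa1a and Hspa8 stay left of 0 with filled symbols on all 3 scales, whereas Hspb1 and most CCT subunits move to the right of 0 with the offsets and per tube.

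**Figure D4:**
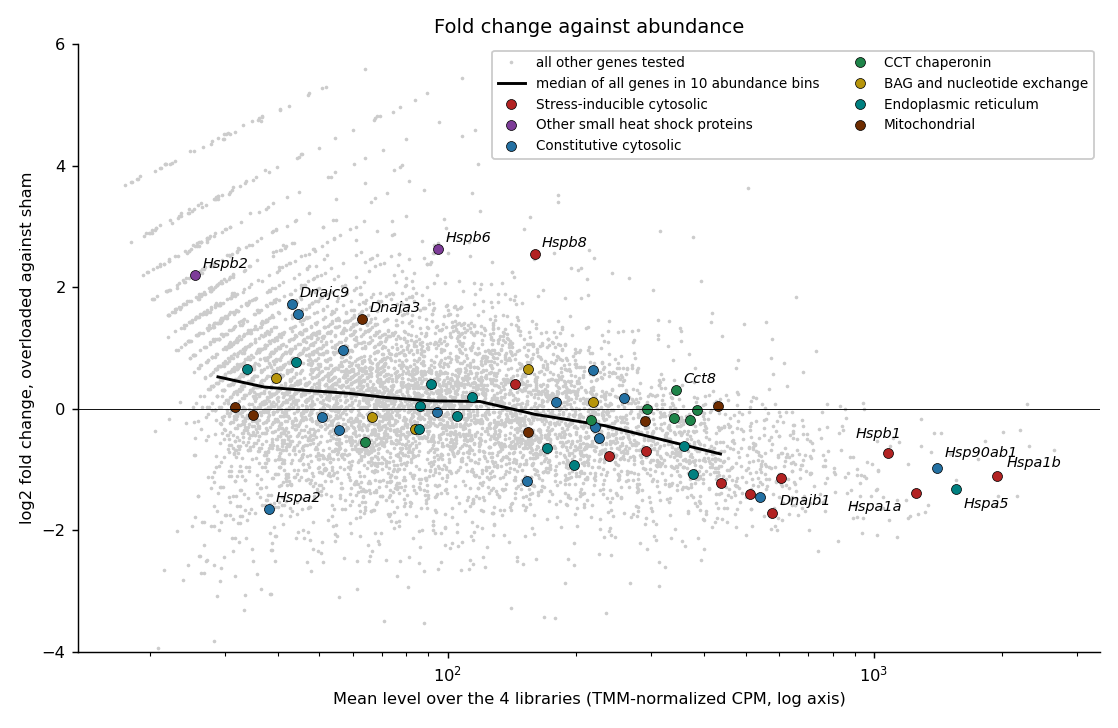
Log2 fold change (vertical axis) against mean level over the 4 libraries (horizontal log axis, TMM-normalized CPM) for the chaperone genes in colour and the other 7169 tested genes in grey, of which 56 lie beyond the vertical axis. The black line joins the medians of all genes in 10 bins of abundance, from 0.53 to -0.74, and the most abundant inducible genes lie beyond its right end while Hspb8 and Hspb6 lie far above it.

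The immediate early genes, which many stimuli switch on within minutes, were lower as well. All 14 of 14 listed passed, against 26.3% of all genes and 70.8% of the most abundant bin, to which all 14 belong. Their median log2FC was -1.61, with a range from -2.18 (Fosb) to -0.53 (Jun). However, Jun and Socs3 turned above 0 with the offsets and per tube, and Dusp1 did not pass per tube (-0.36, adjusted p = 0.16). The summed counts of the 14 genes were 3635 and 3580 in sham and 2156 and 2740 in overloaded libraries, or 1.35%, 1.37%, 0.556% and 0.567% of UMIs, and the most abundant was Junb. Their part in the lower chaperone levels was not tested.

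The heat shock factors themselves did not follow the class. Hsf1, the main activator of inducible chaperone genes, was counted 29, 27, 47 and 55 times, a log2FC of -0.10 (standard error 0.25, adjusted p = 0.78). Per tube it passed as higher (0.86, adjusted p = 0.034), where 62.0% of all genes were higher, and it was 0.18 with library sizes alone. Hsf2 was counted 25, 10, 69 and 73 times and was higher (log2FC 1.06, adjusted p = 0.0098), but not without sham replicate 2 (0.54, adjusted p = 0.22) or with DESeq2 (adjusted p = 0.11). Of 18 listed heat shock factors and cytosolic cochaperones, 2 were higher and 6 lower, against 25.8% and 26.3% of all genes, with a median of -0.06, and 1 of the rises, that of Unc45b, is described with the muscle genes below. The lower ones included Fkbp5 (34, 30, 22 and 40 UMIs, -1.01), an HSP90-bound prolyl isomerase, Unc45a (38, 18, 21 and 27 UMIs, -1.18), a general myosin chaperone, and Cryab (233, 231, 251 and 312 UMIs, -0.68), the small heat shock protein alpha B-crystallin. Cryab turned to 0.26 with the offsets and 0.28 per tube, and Unc45a did not pass without sham replicate 1 (-0.61, adjusted p = 0.29). Neither Fkbp5 nor Unc45a passed with DESeq2 (adjusted p = 0.11 for both) or per tube (-0.05 and -0.22).

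Among the 4 small heat shock genes typical of muscle or testis, Hspb6 and Hspb2 were tested, and both exceeded the filter's minimum in both overloaded but not in both sham libraries, so that no class count is read from them. Hspb6 (HSP20) had 9 and 3 UMIs in sham against 51 and 96 in overloaded libraries, a rise from 26.4 ± 18.1 to 164 ± 43.7 CPM (mean ± SD, n = 2 each). Its log2FC was 2.62 (95% confidence interval 1.79 to 3.45, adjusted p = 5.71e-05), and it moved to 3.54 without sham replicate 1 and to 2.03 without sham replicate 2, past the threshold in both. Hspb2, chosen after its values were seen, was counted 2, 2, 17 and 20 times, a log2FC of 2.20 (standard error 0.55, adjusted p = 0.0039) that did not pass with the offsets (0.31, adjusted p = 0.78) or with DESeq2 (adjusted p = 0.13). Hspb7 and Hspb3 had 0 counts in both sham libraries. Hspb7 was counted 5 and 9 times in overloaded libraries, at least 2.39-fold higher than a floor of 3 counts over the sham group, and Hspb3 5 and 3 times, at least 1.37-fold higher. These floors cover counting error only.

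Hspb2 lies beside Cryab on the opposite strand (GRCm38 chr9:50751078-50752354, minus strand) and overlaps it, so part of its counts could belong to Cryab if the counting was not strand-specific. The same doubt holds for other genes that overlap a gene on the opposite strand, 34 of the 79, among them Hspb6 (beside Lin37 and Proser3), Dnaja3 (Coro7), Dnaja1 and Hsp90b1. On the same strand 20 of the 79 overlap another gene, whatever the strand setting, among them Hspa14, Dnaja3, Hspb6, Bag3, Dnajc25 and Dnajc14. These are overlaps of whole gene spans, and their share in the counts was not tested. The ratio of Hspb2 to Cryab counts was 0.00858 and 0.00866 in sham and 0.0677 and 0.0641 in overloaded libraries. The 6 listed myofiber markers summed to 326 and 175 UMIs in sham and to 1082 and 1277 in overloaded libraries. Of the 5 tested all were higher, against 25.8% of all genes, but Myh4 passed the filter through the overloaded libraries alone. Leaving out sham replicate 2 took the log2FC from 0.83 to 0.45 for Acta1 and from 0.80 to 0.47 for Ckm. Acta1, the most abundant, was counted 120, 66, 299 and 342 times. Unc45b, the myosin chaperone of striated muscle, was counted 3, 3, 17 and 25 times. It too passed the filter through the overloaded libraries alone, and its log2FC of 1.81 (adjusted p = 0.0074) was not past the threshold with the offsets (0.67, adjusted p = 0.39), with DESeq2 (adjusted p = 0.16) or without overloaded replicate 2 (adjusted p = 0.16). The part of myofiber RNA in these rises was not tested.

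Leukocyte markers were near 0 in sham, at 0 and 2 UMIs in sum over 8 genes, 6 of which had 0 counts there. They reached 47 and 99 UMIs in the overloaded libraries, led by Lyz2 at 17 and 38, while the pan-leukocyte gene Ptprc was counted 0, 1, 1 and 4 times. Endothelial markers, led by Flt1, summed to 17, 8, 36 and 46 UMIs over 6 genes, of which 1 was tested and did not pass, with Cldn5 at 0, 0, 1 and 1. Mural markers summed to 181, 161, 478 and 691 over 7 genes, led by Acta2 at 115, 109, 356 and 493. Among them the log2FC was 0.95 for Acta2, 1.88 for Rgs5, 0.48 for Abcc9 and -0.61 for Tagln, while Pdgfrb was at 4, 2, 4 and 15. Fibro-adipogenic markers summed to 604, 549, 735 and 884 over 6 genes, led by Col1a1. In that list Pdgfra was at 0, 0, 2 and 0 and Ly6a at 1, 0, 22 and 41, while the log2FC was -1.09 for Gsn, -0.38 for Dcn and -0.01 for Col1a1. Rgs5 of the former and Ly6a of the latter list passed the filter through the overloaded libraries alone, so no count of calls is given. The part of such cells in the chaperone values was not tested.

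The constitutive cytosolic class of 23 genes had 15 tested. Of these 5 were lower (33.3%, against 26.3% of all genes) and 4 higher, of which Hspa14, Dnajc2 and Dnajc9 passed the filter through the overloaded libraries alone, so the number of rises is not read. DESeq2 called 3 lower and 0 higher, where 14.5% of all genes were lower and 762 of 7228 higher. With library sizes alone 4 were lower and 5 higher, where 18.7% and 37.3% of all genes were. With the offsets 3 were lower and 4 higher, where 21.8% and 20.1% of all genes were. Per tube 1 was lower and 8 were higher, where 4.58% and 62.0% of all genes were. The class had a median log2FC of -0.13 that turned to 0.15 with library sizes alone, 0.02 with the offsets and 0.84 per tube. Hspa8, the constitutive HSP70 of every cell, had 179 and 176 UMIs in sham against 127 and 124 in overloaded libraries. Its level fell from 788 ± 12.8 to 291 ± 55.9 CPM (mean ± SD, n = 2 each), a log2FC of -1.45 (95% confidence interval -1.81 to -1.09, adjusted p = 5.72e-06). Of the runs of 50 bases in its last 500 bases, 81.8% were shared with other annotated genes, 11 in number, so its count may be split with processed copies. The sum of Hspa1a and Hspa1b was 5.65 and 5.70 times the Hspa8 count in sham and 6.08 and 7.36 times in overloaded MuSCs. The ratio was higher in both overloaded libraries, by less than the fall of either transcript.

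Hsp90ab1, the constitutive HSP90, was counted 385, 454, 390 and 438 times, with overlap between groups in raw counts. Its level fell from 1866 ± 269 to 950 ± 89.8 CPM (mean ± SD, n = 2 each), a log2FC of -0.97 (adjusted p = 0.00017), but it was 0.12 with the offsets (adjusted p = 0.50) and -0.02 per tube (adjusted p = 0.91). The ratio of Hsp90aa1 to Hsp90ab1 was 0.309 and 0.344 in sham and 0.279 and 0.276 in overloaded libraries. Dnajb6, a J-domain protein that suppresses aggregation and is mutated in a limb-girdle muscular dystrophy, was counted 42, 54, 36 and 46 times and fell by 1.19 (adjusted p = 0.00064). Hspa2, an HSP70 best known from testis, was counted 12, 14, 7 and 9 times and had a log2FC of -1.64 (adjusted p = 0.0039), which did not pass with DESeq2 (adjusted p = 0.12) or per tube. Hspa4, an HSP110, was counted 58, 61, 78 and 87 times with a log2FC of -0.49 (adjusted p = 0.047), a call that ended under 8 of the alternatives, among them leaving out sham replicate 2 (adjusted p = 0.20) or overloaded replicate 2 (0.27).

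Among the genes that rose in this class, Hspa14 and Dnajc2, whose proteins form the ribosome-associated HSP70 and J-domain complex that receives nascent chains, were both higher. Hspa14 was counted 4, 6, 29 and 29 times (log2FC 1.56, 95% confidence interval 0.62 to 2.51, adjusted p = 0.0092) and Dnajc2 8, 9, 35 and 30 times (0.97, 0.14 to 1.81, adjusted p = 0.054). Dnajc9, which binds histones and was chosen after its values were seen, was counted 7, 2, 24 and 35 times, a log2FC of 1.73 (adjusted p = 0.0078). This value was 2.81 without sham replicate 1 and 1.09 without sham replicate 2. Dnajc8, a J-domain protein of the spliceosome, was counted 31, 46, 100 and 134 times (0.64, adjusted p = 0.022). None of these 4 passed with DESeq2. Without sham replicate 1, Dnajc2 (adjusted p = 0.19) and Dnajc8 (0.42) did not pass. Dnajc2 also did not pass without overloaded replicate 1 (0.28), without sham replicate 2 (0.10) or with the offsets (0.14), and Dnajc9 without sham replicate 2 (0.115).

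Cell cycle transcripts were also more numerous in the overloaded libraries. The 6 listed markers summed to 3 and 9 UMIs in sham and to 392 and 486 in overloaded libraries, led by Top2a at 2, 6, 124 and 176 UMIs. The 5 that were tested passed the filter through the overloaded libraries alone, so no count of calls is given. Their part in the rise of Dnajc9, Hspa14 and Dnajc2 was not tested. Constitutive J-domain genes that did not pass included Dnajc5, the cysteine string protein (64, 46, 77 and 98 UMIs, log2FC -0.29, 95% confidence interval -0.71 to 0.13), and Dnajc21, a ribosome biogenesis factor (44, 34, 65 and 100 UMIs, 0.11, -0.34 to 0.56).

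The CCT chaperonin folds actin and tubulin. All 7 subunit genes counted as protein-coding were tested and 0 passed the threshold in edgeR, where 52.1% of all genes did. In DESeq2 0 passed, where 762 of 7228 genes were higher and 1049 lower. In limma-voom 0 passed, where 1741 genes were higher and 1936 lower. An unadjusted p under 0.05 in edgeR was reached by 0 of the 7, against 3732 of 7228 genes. Cct8 did pass as higher when overloaded replicate 2 was left out (0.52, adjusted p = 0.022) and when library sizes alone were used (0.58, adjusted p = 0.0093). Their log2FC values ran from -0.55 (Tcp1, 95% confidence interval -1.29 to 0.19) to 0.31 (Cct8, -0.08 to 0.69), with a median of -0.16, and that median was 0.12 with library sizes alone, 0.43 with the offsets and 0.80 per tube. Cct7, the most abundant of them, was counted 86, 88, 142 and 194 times, a level of 386 ± 17.2 CPM in sham and 381 ± 16.7 CPM in overloaded MuSCs (SD, n = 2 each). Its interval of -0.37 to 0.33 holds modest changes in either direction. Cct4 was counted 66, 66, 123 and 132 times (log2FC -0.01) and Cct2 94, 83, 138 and 166 times (-0.18).

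Per tube 6 of the 7 were higher past the threshold, where 62.0% of all genes were, and with the offsets 5 were, where 20.1% of all genes were, Cct8 among both with log2FC values of 1.26 and 0.87. The ratio of stress-inducible to CCT counts within a library fell from 4.66 and 4.87 in sham to 2.40 and 2.43 in overloaded MuSCs. This ratio of raw counts does not depend on library size, although the offsets, which differ with abundance, shift the classes against each other. The subunit gene Cct6a carries a processed transcript biotype in the file and was outside the rule. It was counted 96, 91, 187 and 240 times, a log2FC of 0.23 (adjusted p = 0.27) that passed as higher with the offsets, per tube and with library sizes alone. Prefoldin hands actin and tubulin to CCT. Of 8 listed prefoldin and CCT cofactor genes, against 25.8% and 26.3% of all genes, 2 were higher (Pfdn1, 9, 10, 35 and 40 UMIs, and Pfdn4, 11, 11, 34 and 47 UMIs) and 1 was lower (Pfdn5, 72, 66, 68 and 67 UMIs, log2FC -0.99). Pfdn1 and Pfdn4 did not pass with DESeq2 (adjusted p = 0.25 and 0.28) or without sham replicate 1 (0.14 for both), nor Pfdn4 without sham replicate 2 (0.12) or overloaded replicate 2 (0.11), and Pfdn5 did not pass per tube.

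**Figure D5:**
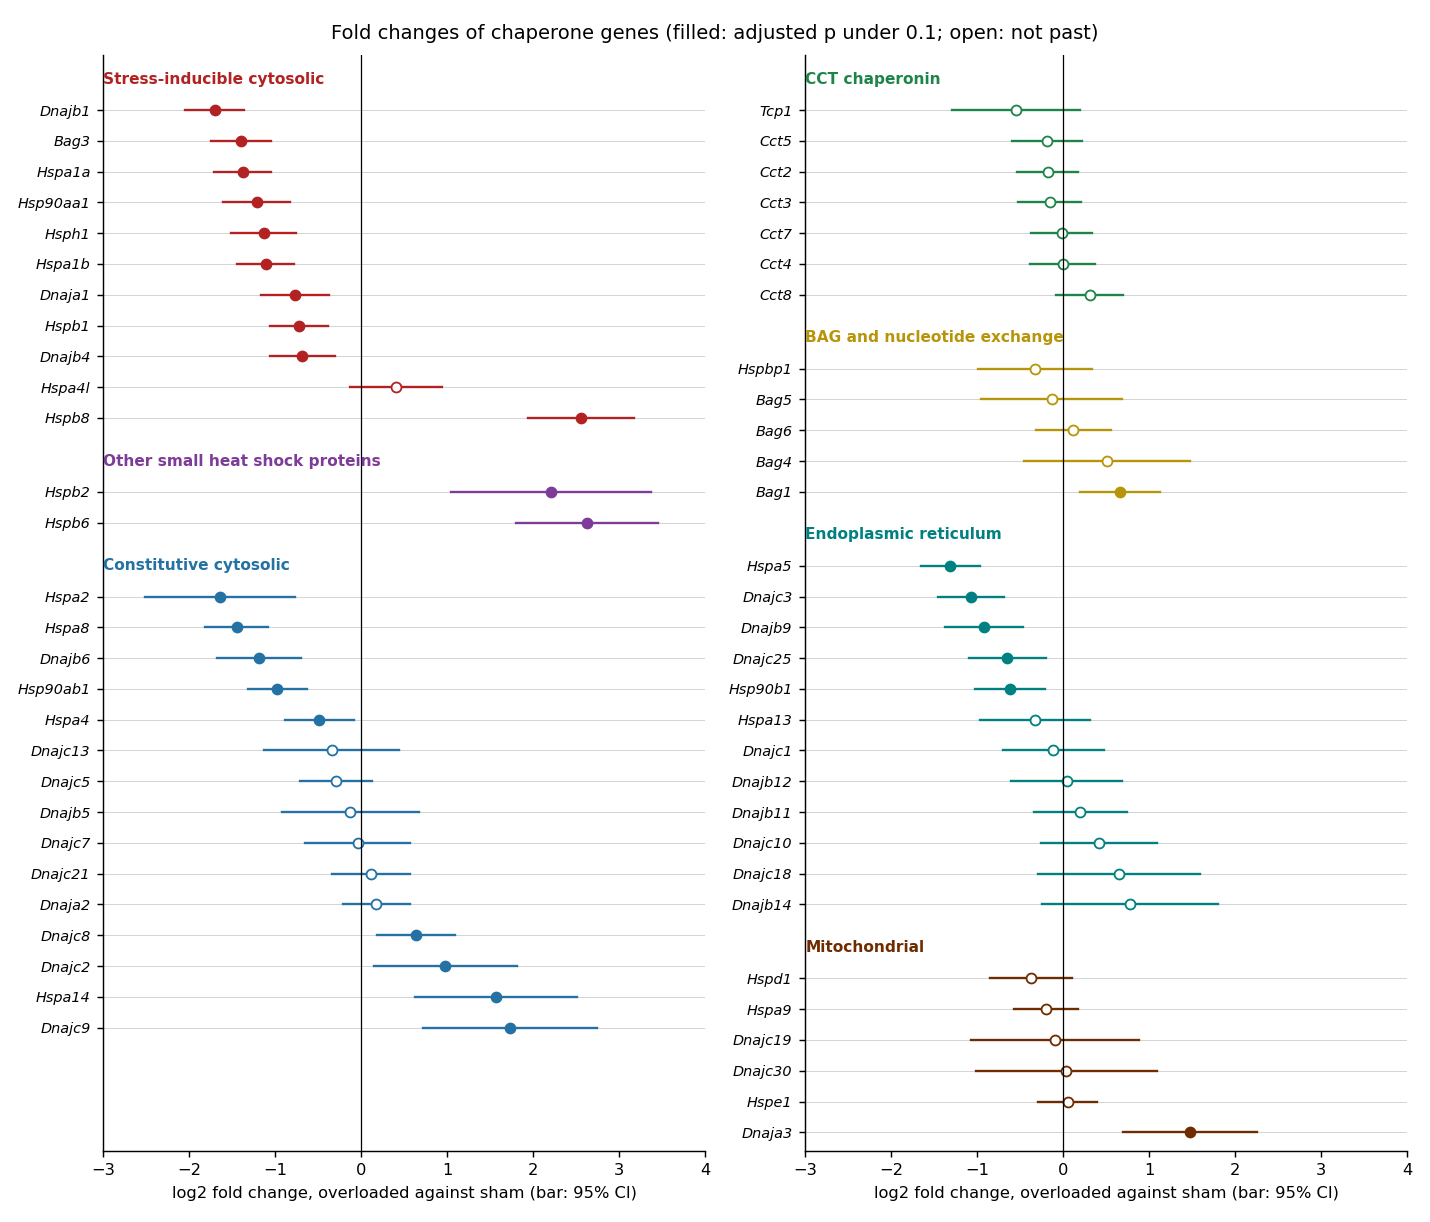
Log2 fold change of each tested chaperone gene, overloaded against sham, with TMM scaling (horizontal axis; points are edgeR estimates, bars 95% confidence intervals, filled points adjusted p under 0.1), grouped by class. The filled points of the stress-inducible class lie between -1.70 and -0.69 except for Hspb8 at 2.55, and every CCT interval crosses 0, with the CCT median at -0.16 here but above 0 with library sizes alone, with the offsets and per tube.

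In the endoplasmic reticulum, 12 of 13 chaperone genes were tested, of which 5 were lower, against 26.3% of all genes, and 0 higher (0 higher also by DESeq2, by limma-voom or at an unadjusted p under 0.05), with a median of -0.22 that turned to 0.06 with library sizes alone and 0.74 per tube. DESeq2 and the offsets each left 3 lower, where 14.5% and 21.8% of all genes were lower. The count became 3 higher and 3 lower with library sizes alone, where 37.3% and 18.7% of all genes were, and 6 higher and 1 lower per tube, where 62.0% and 4.58% were, and 1 gene was higher without overloaded replicate 1 (Dnajb14, 1.26, adjusted p = 0.025) or overloaded replicate 2 (Dnajc10, 0.78, adjusted p = 0.094). Hspa5 (BiP), the HSP70 of this compartment and the sensor partner of the unfolded protein response, had 501 and 500 UMIs in sham against 382 and 397 in overloaded libraries. Its level fell from 2223 ± 59.6 to 899 ± 134 CPM (mean ± SD, n = 2 each), a log2FC of -1.31 (95% confidence interval -1.66 to -0.96, adjusted p = 9.44e-06). It was also lower per tube (-0.36, adjusted p = 0.017) but not past the threshold with the offsets (-0.20, adjusted p = 0.18). Hsp90b1 (GRP94), whose promoter holds both elements shown above, was counted 99, 96, 131 and 114 times, a log2FC of -0.62 (adjusted p = 0.016) that did not pass without overloaded replicate 2 (-0.30, adjusted p = 0.19), with the offsets, per tube, with library sizes alone or with DESeq2. The ratio of Hspa5 to Hsp90b1 counts went from 5.06 and 5.21 in sham to 2.92 and 3.48 in overloaded MuSCs.

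Among the J-domain partners of BiP, Dnajc3 (p58IPK) was counted 134, 97, 87 and 128 times and fell by 1.07 (adjusted p = 0.00018), and Dnajb9 (ERdj4) 67, 50, 46 and 75 times and fell by 0.92 (adjusted p = 0.0023). The raw counts of both overlapped between groups. Per tube neither passed, with Dnajc3 at -0.10 (adjusted p = 0.71) and Dnajb9 at 0.048 (adjusted p = 0.90). Dnajc25 was counted 45, 49, 49 and 68 times, a log2FC of -0.65 (adjusted p = 0.019) that did not pass without sham replicate 2 (adjusted p = 0.11), with DESeq2 (0.22), with library sizes alone (0.17), with thinned counts (0.10) or per tube (0.38, at a log2FC of 0.32). Dnajb11 (ERdj3) did not pass (23, 25, 43 and 65 UMIs, 0.20, 95% confidence interval -0.34 to 0.74), nor did Hspa13 (19, 24, 27 and 40 UMIs, -0.33). Of 16 other listed genes of folding and the unfolded protein response, 15 were tested, and 5 were lower and 2 higher, against 26.3% and 25.8% of all genes. The regulators Atf4 (309, 261, 197 and 244 UMIs, -1.33) and Xbp1 (125, 115, 83 and 134 UMIs, -1.12) and the degradation factor Herpud1 (83, 105, 74 and 86 UMIs, -1.19) were lower, the last of these and Xbp1 not per tube. Sdf2l1, a partner of ERdj3, was counted 7, 6, 53 and 61 times and rose (2.16, adjusted p = 0.00013), having passed the filter through the overloaded libraries alone. Creld2 was higher at 0.79 (adjusted p = 0.055), but not without sham replicate 2 (0.42, adjusted p = 0.43) or overloaded replicate 2 (0.75, adjusted p = 0.15), with the offsets or with DESeq2.

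Of 10 mitochondrial chaperone genes 6 were tested. Dnaja3 was higher but passed the filter through the overloaded libraries alone, so no number of rises is read. Of the 6 tested genes 0 were lower, against 26.3% of all genes. DESeq2 and limma-voom also called 0 lower, where 14.5% and 1936 of 7228 genes were. At an unadjusted p under 0.05 in edgeR 0 were lower, where 3732 of 7228 genes passed in either direction. The median of the 6 genes was -0.03, which turned to 0.24 with library sizes alone, 0.02 with the offsets and 0.92 per tube. Hspd1 (HSP60) was counted 37, 41, 57 and 60 times (log2FC -0.37, 95% confidence interval -0.85 to 0.10) and its partner Hspe1 (HSP10) 95, 96, 164 and 223 times (0.05, -0.29 to 0.40). These genes share the promoter whose run of heat shock element units is shown above, and neither passed the threshold. Hspe1 did pass as higher with the offsets (0.74, adjusted p = 0.000597), per tube (1.02) and when library sizes alone were used (0.33, adjusted p = 0.093). At the Hspe1 3′ end 53.2% of the 50-base runs occur in other annotated genes, 6 in number. Hspa9 (mortalin), the mitochondrial HSP70, was counted 71, 69, 109 and 128 times (-0.20, -0.57 to 0.17). Dnaja3 (Tid1), the J-domain partner of mortalin, was counted 7, 8, 34 and 48 times and rose from 33.4 ± 4.08 to 92.8 ± 6.22 CPM (mean ± SD, n = 2 each), a log2FC of 1.47 (adjusted p = 0.0040). Its log2FC was 1.29 with the offsets and 2.43 per tube. Of 8 other listed mitochondrial folding and import genes 6 were tested, and 2 were higher, against 25.8% of all genes: Grpel1, the nucleotide exchange factor of mortalin (23, 16, 58 and 91 UMIs, 0.96), and the import receptor Tomm70a (23, 20, 66 and 97 UMIs, 0.95). Neither passed with DESeq2 (adjusted p = 0.12 and 0.10).

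Of the 6 remaining BAG and nucleotide exchange genes 5 were tested. Bag1, which stimulates nucleotide release from HSP70, was counted 27, 27, 70 and 97 times and rose from 120 ± 3.38 to 189 ± 10.2 CPM (mean ± SD, n = 2 each), a log2FC of 0.66 (adjusted p = 0.023) that did not pass without sham replicate 1 (adjusted p = 0.15), without sham replicate 2 (0.115) or with DESeq2 (0.26). Bag6 (41, 54, 79 and 123 UMIs, 0.12), Bag4 (0.51), Bag5 (-0.13) and Hspbp1 (-0.33) did not pass. Without sham replicate 1 Bag5 was -0.70 and Bag4 1.02, and without sham replicate 2 they were 0.64 and 0.08. Per tube Bag4 (1.47, adjusted p = 0.023) and Bag6 (1.09, adjusted p = 0.0039) passed as higher, where 62.0% of all genes were higher.

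The 20 genes left untested had at most 38 UMIs over the 4 libraries. Bag2 was counted 8, 3, 5 and 21 times, so its overloaded libraries differed by more than the groups. Dnajc14, which had 1 UMI in each sham library and 9 and 15 in the overloaded ones, was 6.15-fold higher (95% exact binomial interval 1.53 to 53.7, counting error only). Dnajc15, the mitochondrial import J-domain protein, had 1, 1, 9 and 6 UMIs, a ratio of 3.85 (0.894 to 34.7). Hspa1l, which neighbours Hspa1a and is mostly expressed in testis, had 1, 0, 2 and 0 UMIs.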

How the data were processed

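The table deposited by the authors holds whole-number UMI counts per gene, not normalized, for 2 sham and 2 overloaded libraries. Reads were aligned to GRCm38. UMI-tools 1.0.0, HISAT2 2.1.0, featureCounts 1.6.4 and DESeq2 1.22.2 are named in the submitters' processing notes. The annotation release and the strand setting are not given in the sources used here. UMIs were 6 bases long, which allows 4096 tags, and the highest count of any gene was 1102.

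Counts were fitted for all genes with edgeR 4.0.16 in R 4.3.3 (TMM scaling, filterByExpr with a minimum count of 10 and total of 15, quasi-likelihood F test) with Benjamini-Hochberg adjustment over 7228 genes and a threshold of 0.1. With 2 libraries per group, p = 0.333 is the smallest value that an exact permutation test can give. The common biological coefficient of variation was 9.50%. On simulated data for this comparison (7096 genes tested, 179 of them changed), 65.6% of 2-fold and 96.6% of 4-fold changes were recovered, with 0 in the wrong direction and 16 false calls. The simulation used a single spread for all genes and no trend of fold change with abundance. Far fewer genes changed in it than passed the threshold here, so these figures need not hold for the data. Replicates of a group differed by more than sampling noise (chi-square per degree of freedom 1.31 for sham and 1.50 for overloaded libraries, against 6.35 or more between groups), so each was counted as 1 sample.

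Genes were named by rule: all stress-inducible, CCT, HSP60, HSP10, HSP70, HSP90 and HSP110 genes with at least 40 UMIs in all, up to 5 of the other rises and falls with a mean of at least 20 UMIs per library, the highest-count genes that did not pass, and up to 2 rises and 2 falls per companion list. Within-library ratios and some further genes were chosen after values were seen. The chaperone genes, the companion lists and the tests were chosen with earlier results of these data known. Alternatives were DESeq2 1.42.0 and its size factors, limma-voom (limma 3.58.1), library sizes alone, UMIs per tube, offsets for abundance (loess), no filter, a filter of 10 counts in every library of a group, thinned counts, a replicate block, a threshold of 0.05, leaving out each library and, chosen after seeing the data, a correction for UMI collisions and CCT with Cct6a. Gene positions came from GENCODE vM21, to which all 19353 identifiers matched.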

Additional observations from a re-analysis of the deposited data

Results flagged for a closer look

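Cct6a, a subunit gene of the CCT chaperonin, lay outside the protein-coding genes compared, since it carries a processed transcript biotype, yet it was counted 427 times over the overloaded libraries and 96 and 91 times in sham. Counted as a CCT subunit it would be the most abundant of them, and its log2 fold change of 0.23 (95% confidence interval -0.12 to 0.57, adjusted p = 0.27) did not pass the threshold.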

How the results depend on the processing

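With DESeq2 size factors, limma-voom, the replicate block and the collision correction, all 71 named genes kept their direction and side of the threshold. Deviations of same-numbered libraries showed little correlation (r = -0.034), but with 2 libraries per group this cannot show whether the libraries were paired. The block gave 9 higher and 19 lower chaperone genes with medians of -1.11 (stress-inducible), -0.15 (CCT) and -0.23 (endoplasmic reticulum).

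The number of higher chaperone genes was 17 with library sizes alone, 31 per tube, 15 with the offsets and 3 with DESeq2, and that of lower ones 5 per tube, 12 with the offsets and 15 with DESeq2. DESeq2 called fewer of all genes too, 762 higher and 1049 lower of 7228. The stress-inducible median was -0.84 with library sizes alone, -0.15 per tube, -0.33 with the offsets, -1.03 with no filter, -1.18 with 10 counts in every library and -0.94 with thinned counts. The CCT median was 0.12, 0.80, 0.43, -0.076, -0.22 and -0.077 in the same order, and -0.087 with Cct6a. The endoplasmic reticulum median was 0.056 with library sizes alone and 0.74 per tube. Leaving out 1 library gave a stress-inducible median of -1.15 to -0.93, a CCT median of -0.25 to -0.023 and an endoplasmic reticulum median of -0.48 to 0.0033. At a threshold of 0.05, Dnajc2, Creld2 and Dcn did not pass.

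Signs turned per tube for Cct2 (0.78), Cct3 (0.80), Cct4 (0.95), Cct5 (0.77), Cct7 (0.95), Tcp1 (0.40), Hspb1 (0.23), Hsp90b1 (0.33), Hspa4 (0.47), Hspa9 (0.76), Hspd1 (0.58), Hspa13 (0.64), Dnaja1 (0.19), Dnajb4 (0.27), Dnajb9 (0.048), Dnajc25 (0.32), Dnajc5 (0.67), Hsf1 (0.86), Dcn (0.58) and Tagln (0.35). With the offsets they turned for Cct2 (0.43), Cct3 (0.41), Cct4 (0.48), Cct5 (0.12), Cct7 (0.62), Hspb1 (0.29), Hsp90ab1 (0.12), Hspa9 (0.29), Hspa1b (0.080), Dnajc5 (0.024) and Dcn (0.20), and with library sizes alone for Cct2 (0.10), Cct3 (0.12), Cct4 (0.27), Cct5 (0.087), Cct7 (0.26), Hspa9 (0.077) and Hsf1 (0.18). They also turned for Cct4 (0.074) and Cct7 (0.063) with no filter, for Cct4 (0.0086), Dnajc21 (-0.065) and Hsf1 (0.11) with thinned counts, and for Hspe1 (-0.017) with 10 counts in every library. Leaving out 1 library gave -0.11 to 0.17 for Cct4, -0.10 to 0.047 for Cct7, -0.019 to 0.11 for Hspe1, -0.073 to 0.25 for Dnajc21, -0.13 to 0.32 for Bag6 and -0.16 to 0.018 for Hsf1. The cause was not tested. Genes with few sham UMIs have wide intervals.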
